A study of Homo sapiens with 6 samples.

Results

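The CDK inhibitor genes of the CIP/KIP and INK4 families were followed in RPE1 cells given Nutlin-3. They were chosen by name, as the 7 genes CDKN1A, CDKN1B and CDKN1C (CIP/KIP) and CDKN2A, CDKN2B, CDKN2C and CDKN2D (INK4). They are 7 of 57773 Ensembl gene IDs in the deposited table, and 6 of the 7 are among the 12212 genes that were tested, for which the mean had to reach 0.5 RPKM. RPKM is reads per kb of gene per M of the library size.

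RPE1 is an immortalised human cell line derived from retinal pigment epithelium. Treated cells received 2.5 µM Nutlin-3, a small molecule that blocks the p53-binding pocket of the ubiquitin ligase MDM2, and the control cells received its vehicle DMSO. Both groups were the same line, kept in DMEM with fetal bovine serum and exposed for 24 h, and each gave 3 poly(A) RNA libraries. The series was made to find genes that respond to p53.

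Library sizes behind the RPKM were between 30.4 and 35.8 M in the Nutlin-3 libraries and between 29.8 and 42.3 M in the DMSO libraries. They were 0.925 to 0.944 times the reads recovered from the RPKM in the Nutlin-3 libraries and 0.989 to 1.01 times in the DMSO libraries. The same share of recovered reads thus gives a higher RPKM with Nutlin-3. Values per M reads use these sizes. The gene of the drug target, MDM2, had 8.27, 8.71 and 8.40 RPKM in the Nutlin-3 libraries, against 2.23, 2.30 and 2.40 RPKM in the DMSO libraries (log2 fold change 1.67, SE 0.035, adjusted p = 2.91e-05 by limma). Of 12 retinal pigment epithelium genes, MITF, OTX2 and RDH5 were at or above 0.5 reads per kb of exons per M reads, RPE65 and TYR had at most 2 and 1 reads in any library, and TTR and DCT were at 0. The summed level of that list was 21.1 to 22.0 with Nutlin-3 and 20.2 to 21.6 with DMSO, in which RDH5 was at 6.72 with Nutlin-3 and 4.27 with DMSO and OTX2 at 7.77 with Nutlin-3 and 9.50 with DMSO. A keratin, cadherin and vimentin list summed to 984 to 1043 with Nutlin-3 and 953 to 1047 with DMSO, most of it VIM (805 with Nutlin-3 and 857 with DMSO). Within it KRT18 (88.7 with Nutlin-3 and 50.9 with DMSO), KRT8 (54.3 with Nutlin-3 and 32.4 with DMSO) and CDH2 (68.1 with Nutlin-3 and 53.4 with DMSO) were higher in every Nutlin-3 library, and the part of such a shift in the changes of the CDK inhibitor genes was not tested. Markers of other cells were near 0, with sums of 0.0475 to 0.0775 with Nutlin-3 and 0.0659 to 0.106 with DMSO for leukocytes, 0.0188 to 0.0274 with Nutlin-3 and 0.0137 to 0.0238 with DMSO for endothelium, and 0.388 to 0.495 with Nutlin-3 and 0.501 to 0.731 with DMSO for neurons. In bulk RNA, fewer cells that express a gene and less RNA per cell cannot be told apart.

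Progress through the cell cycle is driven by kinases that need a cyclin partner, and the CDK inhibitors hold these kinases back. CIP/KIP proteins bind cyclin and kinase together and act broadly, above all on CDK2 complexes, whereas INK4 proteins bind CDK4 and CDK6 and keep D-type cyclins from them. p53 induces CDKN1A directly, and the product p21 is the classic mediator of p53-dependent arrest in G1. CDKN2A and CDKN2B lie side by side in the 9p21 locus, which is known for its activation in senescence and its loss in cancer.

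Across the 7 genes, CDKN1A, CDKN2A and CDKN2B were higher with Nutlin-3, CDKN1B, CDKN2C and CDKN2D were lower, and CDKN1C was too low to test with the others. Thus 6 of 6 tested genes changed, 3 in each direction (limma, adjusted p under 0.05). Among all 12212 tested genes, 51.6% changed, 29.1% higher and 22.5% lower with Nutlin-3, so a change as such was common. The split by direction depends on scaling, with 3206 higher and 3216 lower after median-of-ratios scaling, against 3551 higher and 2745 lower as deposited. On recovered reads limma voom called the same 6 of 7, against 49.4% of 20882 genes, with 25.6% higher and 23.9% lower. The sizes were spread widely. On the log2 scale CDKN1A was at percentile 99.99 of all tested genes, CDKN2B at 98.4 and CDKN2A at 89.3, while CDKN1B was at 17.1, CDKN2D at 3.37 and CDKN2C at 1.72.

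**Figure D1:**
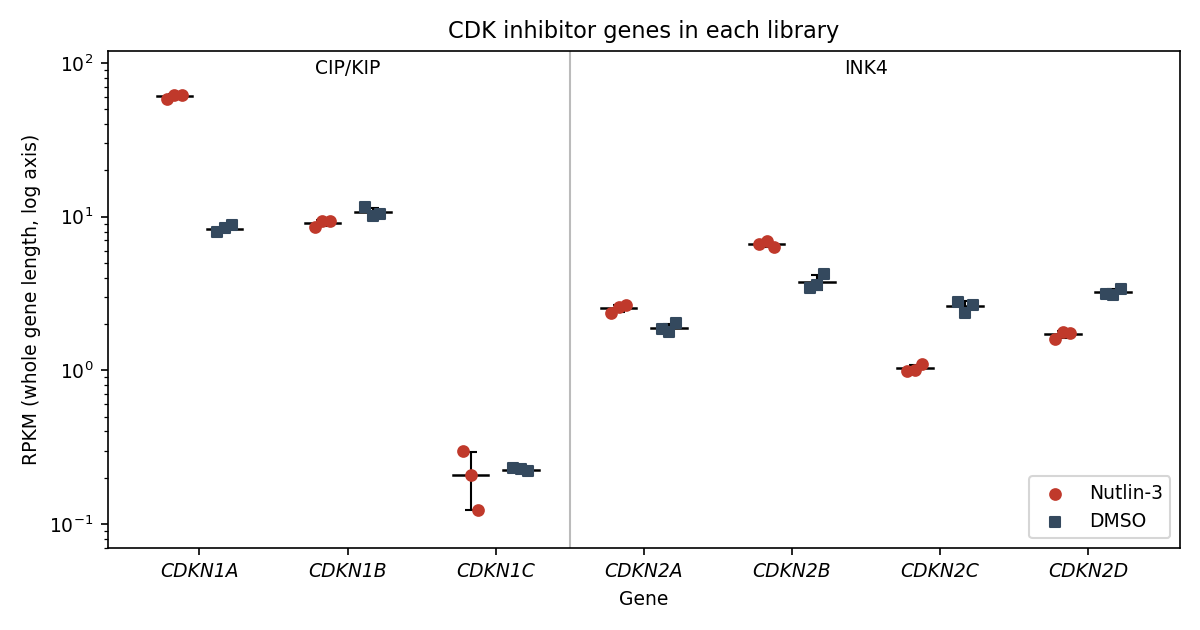
RPKM (log axis) of the 7 CDK inhibitor genes in each of the 3 Nutlin-3 libraries (circles) and 3 DMSO libraries (squares), with the mean as a horizontal line and the SD as a bar. The groups do not overlap for any gene other than CDKN1C, and CDKN1A stands highest with Nutlin-3 at 57.8 to 62.0 RPKM.

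The promoters shown are of the inhibitor genes with the largest rises, CDKN1A and CDKN2B, and the largest falls, CDKN2C and CDKN2D. Each line is the 250 bases before a RefSeq start in GRCh38.p14, read 5′ to 3′ on the gene's strand, with capitals for GC boxes (GGGCGG on either strand) and CCAAT boxes (CCAAT on either strand). The windows are chr6:36678464-36678713 (plus strand) for CDKN1A, chr9:22009306-22009555 (minus strand) for CDKN2B, chr1:50968456-50968705 (plus strand) for CDKN2C and chr19:10568980-10569229 (minus strand) for CDKN2D.
CDKN1A: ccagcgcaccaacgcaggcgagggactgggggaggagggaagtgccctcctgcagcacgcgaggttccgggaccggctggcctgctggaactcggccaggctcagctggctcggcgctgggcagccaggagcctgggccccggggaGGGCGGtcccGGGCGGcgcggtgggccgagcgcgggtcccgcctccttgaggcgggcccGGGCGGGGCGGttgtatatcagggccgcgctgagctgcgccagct
CDKN2B: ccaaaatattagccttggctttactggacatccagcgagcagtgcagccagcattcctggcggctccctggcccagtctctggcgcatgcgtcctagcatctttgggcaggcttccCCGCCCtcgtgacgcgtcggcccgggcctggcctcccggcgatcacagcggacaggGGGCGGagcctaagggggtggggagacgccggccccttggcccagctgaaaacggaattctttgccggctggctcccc
CDKN2C: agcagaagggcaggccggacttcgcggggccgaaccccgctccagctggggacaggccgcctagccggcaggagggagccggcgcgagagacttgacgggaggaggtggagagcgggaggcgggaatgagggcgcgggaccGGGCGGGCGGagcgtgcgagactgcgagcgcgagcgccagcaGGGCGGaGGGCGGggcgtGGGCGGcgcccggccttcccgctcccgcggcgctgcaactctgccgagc
CDKN2D: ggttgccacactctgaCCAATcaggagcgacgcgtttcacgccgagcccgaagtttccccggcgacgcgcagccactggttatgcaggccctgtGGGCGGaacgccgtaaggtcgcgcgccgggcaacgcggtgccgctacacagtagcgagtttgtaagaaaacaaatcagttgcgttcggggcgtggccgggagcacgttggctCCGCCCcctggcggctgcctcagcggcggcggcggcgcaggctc
The CDKN1A window held 4 GC boxes, the nearest 35 bases before the start, and the CDKN2C window shown held 5, with overlapping matches in both. CDKN2C has 3 windows in the table and the one richest in GC boxes is shown. Of the other 2, chr1:50960495-50960744 held no GC box, and chr1:50969995-50970244 held 1 GC box and 1 CCAAT box. The CDKN2B and CDKN2D windows held 2 GC boxes each, and the CDKN2D window also held 1 CCAAT box. Among the genes not shown, the CDKN1B window held 1 GC box and 2 CCAAT boxes. Of the CDKN2A windows, chr9:21974858-21975107 held 1 GC box and chr9:21995325-21995574 held none, and neither held a CCAAT box. A GC box was present in 42.6% of 35116 RefSeq windows of the same length and a CCAAT box in 32.0%. CDKN1C had no window. No window of the other CDK inhibitor genes held the E2F sites searched (TTTCCCGC, TTTCGCGC, TTTGCCGC or TTTGGCGC on either strand, in 2.79% of all windows). Nor did any hold a TATA box (TATAAA or TATATA, in 12.8%) or a p53 half-site (in 5.57%). A CHR element (TTTGAA or TTTAAA on either strand, in 21.9%) had 1 match, in the CDKN1B window, and none in the others. These matches describe letters within 250 bases only.

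CDKN1A (ENSG00000124762, chromosome 6) encodes p21. On log2(RPKM + 0.5), which understates changes of low genes, it had the largest rise of all tested genes. It had 57.8, 62.0 and 61.8 RPKM in the Nutlin-3 libraries, against 7.88, 8.38 and 8.81 RPKM in the DMSO libraries. Every Nutlin-3 library was far above every DMSO library. The means were 60.5 ± 2.34 RPKM with Nutlin-3 and 8.36 ± 0.463 RPKM with DMSO (SD, n = 3 each), a 7.24-fold difference. The log2 fold change was 2.78 (SE 0.051, 95% interval 2.66 to 2.91, adjusted p = 2.36e-05 by limma). These values rest on 19747 to 23985 reads per Nutlin-3 library and 2700 to 3603 reads per DMSO library, and 4.79% of the exon length of CDKN1A overlaps a gene on the opposite strand.

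CDKN1B (ENSG00000111276, chromosome 12) encodes p27, which holds CDK2 inactive in resting cells and is governed largely through protein turnover. It had 8.55, 9.37 and 9.33 RPKM in the Nutlin-3 libraries, against 11.5, 10.1 and 10.3 RPKM in the DMSO libraries. The highest Nutlin-3 library lay below the lowest DMSO library, by less than the range within either group. The mean fell to 9.09 ± 0.463 RPKM with Nutlin-3, against 10.7 ± 0.748 RPKM with DMSO (SD, n = 3 each), or 85.2% of the DMSO level (log2 fold change -0.22, SE 0.062, adjusted p = 0.0301 by limma). Recovered reads gave -0.23 with an adjusted p of 8.90e-04 by limma voom. On RPKM the call was lost with limma when a library was left out, with adjusted p = 0.0794, 0.0574 and 0.0572 without Nutlin-3 replicate 1, 2 and 3, 0.0537 without DMSO replicate 1 and 0.0546 without DMSO replicate 3. It was kept without DMSO replicate 2 (adjusted p = 0.0388 by limma) and lost with no filter on low values (0.0729).

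CDKN1C (ENSG00000129757, chromosome 11) encodes p57, an imprinted inhibitor used mainly in development. It had 0.297, 0.209 and 0.123 RPKM in the Nutlin-3 libraries, against 0.230, 0.226 and 0.220 RPKM in the DMSO libraries. The Nutlin-3 libraries lay on both sides of the DMSO libraries. The values come from 25, 20 and 10 reads with Nutlin-3 and 26, 18 and 19 reads with DMSO. In a limma fit without a filter, in which 21.2% of 36363 genes were called, the log2 fold change was -0.039 (95% interval -0.28 to 0.20, adjusted p = 0.839), and without Nutlin-3 replicate 3 it was 0.051. On reads the fold was 0.884 with a 95% interval of 0.579 to 1.35, so no difference was detectable at this depth.

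The INK4 family split by gene pair, with CDKN2A and CDKN2B higher and CDKN2C and CDKN2D lower. CDKN2B (ENSG00000147883, chromosome 9) encodes p15, an inhibitor known to respond to TGF-beta. It had 6.66, 6.93 and 6.35 RPKM in the Nutlin-3 libraries, against 3.45, 3.59 and 4.21 RPKM in the DMSO libraries. The lowest Nutlin-3 library was well above the highest DMSO library. The means were 6.65 ± 0.290 RPKM with Nutlin-3 and 3.75 ± 0.405 RPKM with DMSO (SD, n = 3 each), a 1.77-fold difference (log2 fold change 0.75, SE 0.075, adjusted p = 7.04e-04 by limma). It had 1247 to 1603 reads per Nutlin-3 library and 691 to 941 reads per DMSO library.

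CDKN2A (ENSG00000147889, chromosome 9) encodes both p16 and, from another start and reading frame, the MDM2 inhibitor ARF, and values per gene do not separate them. It had 2.38, 2.56 and 2.65 RPKM in the Nutlin-3 libraries, against 1.84, 1.78 and 2.02 RPKM in the DMSO libraries. The groups did not overlap. The means were 2.53 ± 0.139 RPKM with Nutlin-3 and 1.88 ± 0.125 RPKM with DMSO (SD, n = 3 each), a 1.35-fold difference (log2 fold change 0.35, SE 0.053, adjusted p = 3.24e-03 by limma). Of its exon length, 7.88% overlaps the antisense gene CDKN2B-AS1, and whether the counting used strand is not given in the sources used here. CDKN2A and CDKN2B share 31 of their transcripts' 50-base words, 0.681% of those of CDKN2A and 0.765% of those of CDKN2B, and the other 5 genes share none with another CDK inhibitor gene.

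CDKN2C (ENSG00000123080, chromosome 1) encodes p18. It had 0.985, 1.01 and 1.10 RPKM in the Nutlin-3 libraries, against 2.80, 2.36 and 2.65 RPKM in the DMSO libraries. Every Nutlin-3 library was less than the lowest DMSO library by more than the range within either group. The mean fell to 1.03 ± 0.0593 RPKM with Nutlin-3, against 2.60 ± 0.220 RPKM with DMSO (SD, n = 3 each), or 39.5% of the DMSO level (log2 fold change -1.02, SE 0.061, adjusted p = 1.33e-04 by limma). The added 0.5 RPKM makes this change look smaller, and on recovered reads limma voom gave -1.35, with 432 to 501 reads per Nutlin-3 library and 978 to 1641 reads per DMSO library.

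CDKN2D (ENSG00000129355, chromosome 19) encodes p19, the smallest locus of the family by exon length. It had 1.61, 1.76 and 1.76 RPKM in the Nutlin-3 libraries, against 3.16, 3.07 and 3.40 RPKM in the DMSO libraries. The groups did not overlap. The mean fell to 1.71 ± 0.0884 RPKM with Nutlin-3, against 3.21 ± 0.167 RPKM with DMSO (SD, n = 3 each), or 53.3% of the DMSO level (log2 fold change -0.75, SE 0.047, adjusted p = 1.58e-04 by limma). It had 132 to 164 reads per Nutlin-3 library and 238 to 347 reads per DMSO library. For the 6 tested genes together, the groups did not overlap in 6 of 6, against 61.8% of all tested genes.

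**Figure D2:**
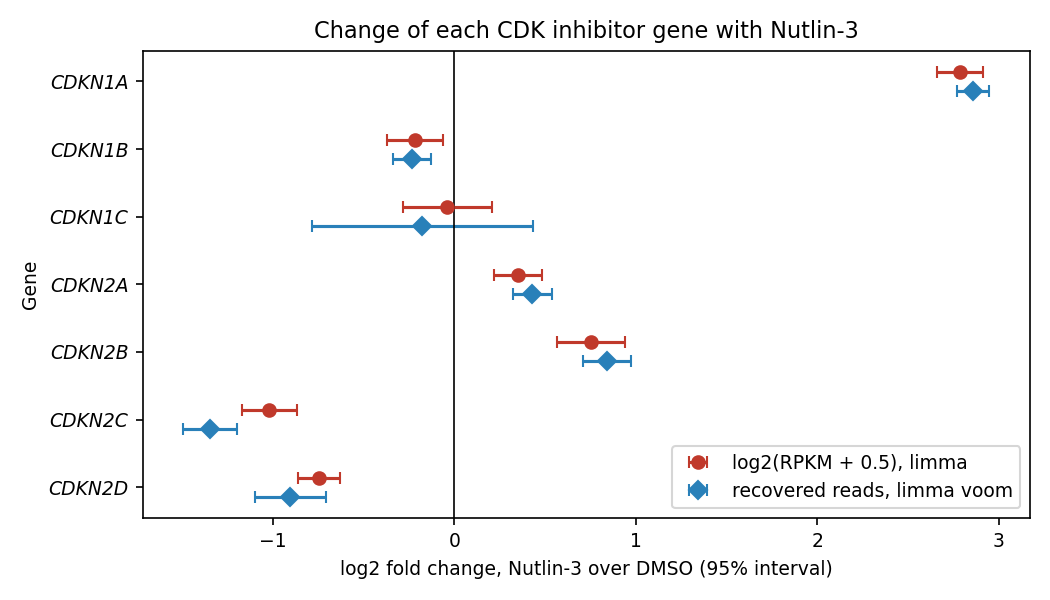
Log2 fold change of each CDK inhibitor gene, Nutlin-3 over DMSO, with its 95% interval, from limma on log2(RPKM + 0.5) (circles) and from limma voom on recovered reads (diamonds). The intervals of CDKN1C cover 0 in both, and CDKN2C differs most between them, at -1.02 and -1.35.

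Levels of different genes were compared per length, as reads per kb of merged exons per M reads, because the deposited RPKM divide by the whole gene with its introns. Whether reads in introns were counted is not given in the sources used here, so levels of genes with long introns may be overstated. With Nutlin-3 the order of mean levels was CDKN1A at 214.6, CDKN1B at 23.6, CDKN2A at 16.1, CDKN2B at 10.6, CDKN2C at 4.31, CDKN2D at 2.96 and CDKN1C at 0.226. No neighbours in this order overlapped between their libraries. With DMSO, CDKN1A at 29.6 and CDKN1B at 27.8 overlapped, as did CDKN2A at 11.96 and CDKN2C at 10.9, and CDKN2B at 5.97 and CDKN2D at 5.55, with CDKN1C lowest at 0.243. CDKN2C thus stood above CDKN2B in every DMSO library and below it in every Nutlin-3 library.

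The summed level of the 7 genes was 272 ± 10.6 with Nutlin-3 and 92.0 ± 3.20 with DMSO (SD, n = 3 each), a 2.96-fold difference. CDKN1A made up 78.8, 78.8 and 78.8% of that sum in the Nutlin-3 libraries, against 30.2, 33.5 and 32.9% in the DMSO libraries. The Nutlin-3 libraries differed by less than the printed digits and stood 46.6 percentage points above the DMSO mean (2-sided exact permutation p = 0.1, the smallest that 3 against 3 libraries allow). CDKN1B made up 8.68 ± 0.108% with Nutlin-3 and 30.2 ± 2.05% with DMSO, and the 4 INK4 genes together made up 12.5% with Nutlin-3 and 37.3% with DMSO. Without CDKN1A the sum of the other 6 was 57.8 ± 2.26 with Nutlin-3 and 62.4 ± 3.09 with DMSO, and the groups overlapped (2-sided exact permutation p = 0.3).

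**Figure D3:**
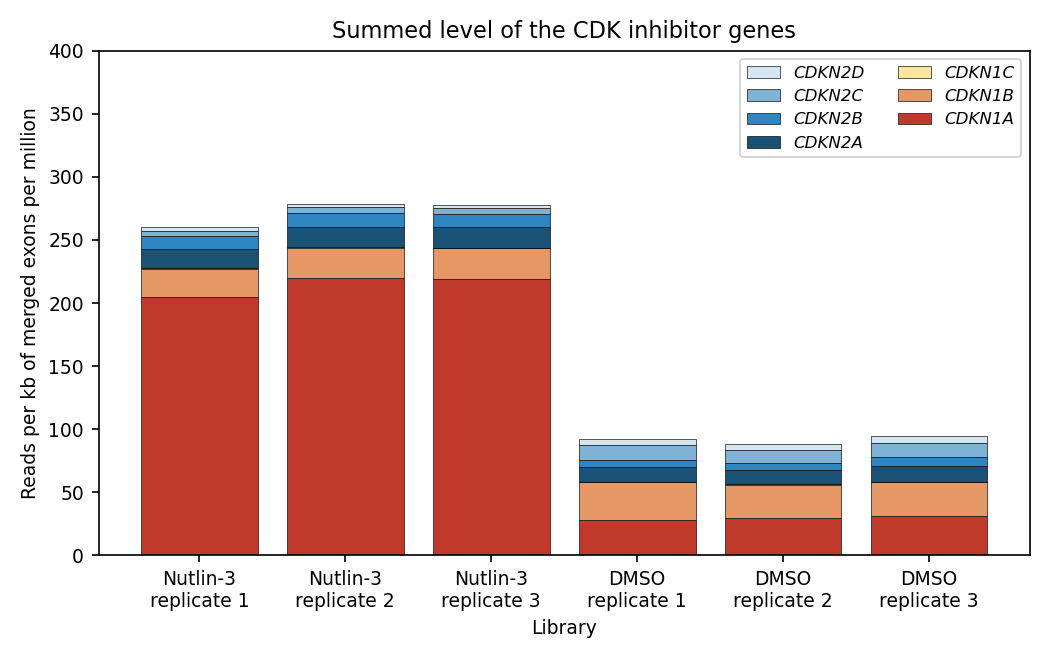
Summed level of the 7 CDK inhibitor genes in each library, in reads per kb of merged exons per M reads, stacked by gene. The bars reach 260.2 to 278.9 in the Nutlin-3 libraries and 88.6 to 94.9 in the DMSO libraries, CDKN1A is the largest segment with Nutlin-3, and CDKN1C is too low to be seen.

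Within the INK4 family the opposite changes met in the sum. CDKN2A and CDKN2B together had a level of 26.7 ± 0.843 with Nutlin-3 and 17.9 ± 1.40 with DMSO, 1.49-fold, while CDKN2C and CDKN2D together had 7.27 ± 0.366 with Nutlin-3 and 16.5 ± 1.08 with DMSO, a ratio of 0.442 (SD, n = 3 each). The 4 genes summed to 32.6, 34.6 and 34.6 in the Nutlin-3 libraries, against 34.4, 32.2 and 36.5 in the DMSO libraries. These groups overlapped, and the difference of -0.427 was smaller than either SD (2-sided exact permutation p = 1.0). The sign of that small difference depends on the length used, since it was 0.475 with the gene span and 10.9 in reads per M without a length, and it was also positive without Nutlin-3 replicate 1 (0.230) or without DMSO replicate 3 (0.645).

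Ratios to the kinases that the inhibitors bind were read on the same per-exon scale. CDKN1A to CDK2 was 35.1 ± 0.847 with Nutlin-3 and 1.97 ± 0.240 with DMSO (SD, n = 3 each). The sum of the INK4 genes relative to CDK4 plus CDK6 was 0.722 ± 0.00951 with Nutlin-3 and 0.584 ± 0.0414 with DMSO. The INK4 sum itself overlapped between the groups, while CDK4 was at 41.3 ± 1.07 with Nutlin-3 and 53.2 ± 2.38 with DMSO. CDKN1A to CDKN1B was 9.08 ± 0.115 with Nutlin-3 and 1.07 ± 0.123 with DMSO, and CDKN2A to CDKN2B was 1.52 ± 0.126 with Nutlin-3 and 2.01 ± 0.116 with DMSO. In each of these 4 ratios the groups did not overlap (2-sided exact permutation p = 0.1 each, the smallest possible). These are ratios of RNA and say nothing of protein.

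Along chromosome 9 the genes around the INK4 locus went different ways. In percent of the DMSO mean, CDKN2B had 177.7, 184.9 and 169.4 with Nutlin-3 and 91.9, 95.8 and 112.3 with DMSO, and CDKN2A had 126.5, 136.4 and 141.0 with Nutlin-3 and 98.2, 94.5 and 107.4 with DMSO. MTAP, an enzyme of methionine salvage beside CDKN2A, had 72.1, 71.2 and 72.0 with Nutlin-3 and 102.3, 98.1 and 99.6 with DMSO (log2 fold change -0.26, adjusted p = 4.98e-04 by limma). The 2 inhibitors were thus higher and MTAP lower in every Nutlin-3 library. The antisense RNA CDKN2B-AS1 was below the filter, with 78.7, 76.9 and 77.3 with Nutlin-3 and 95.3, 103.1 and 101.5 with DMSO, from 140 to 240 reads per library (limma voom log2 fold change -0.36, adjusted p = 3.92e-03). DMRTA1, on the far side of CDKN2B, had 101.6, 101.7 and 96.3 with Nutlin-3 and 102.4, 99.7 and 97.9 with DMSO and did not pass (adjusted p = 0.969 by limma).

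**Figure D4:**
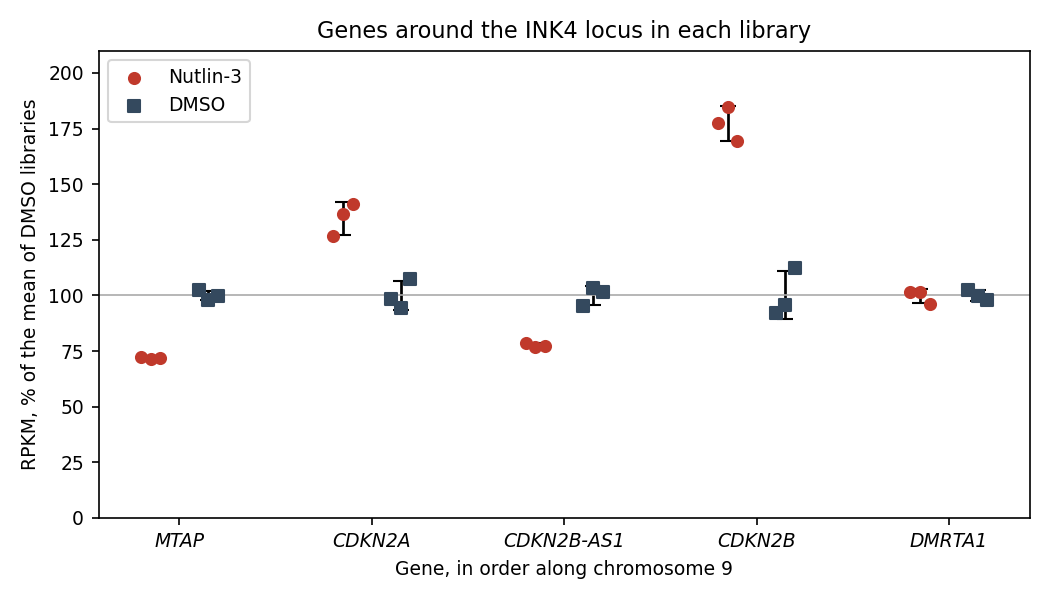
RPKM as a percent of the DMSO mean for MTAP, CDKN2A, CDKN2B-AS1, CDKN2B and DMRTA1, in their order by start along chromosome 9, in the 3 Nutlin-3 libraries (circles) and 3 DMSO libraries (squares), with bars for the SD around the group mean. CDKN2A and CDKN2B lie above the DMSO libraries, MTAP and CDKN2B-AS1 below them, and DMRTA1 among them.

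Of 13 neighbouring and antisense genes of the 7 loci, 6 were tested, 1 was higher, 3 were lower and 2 did not pass, with a median log2 fold change of -0.054, against 29.1% higher, 22.5% lower and a median of 0.024 over all tested genes. Beside CDKN1A, the splicing factor SRSF3 fell to 19.1 ± 0.571 RPKM with Nutlin-3, against 27.4 ± 1.42 RPKM with DMSO (SD, n = 3 each). Near CDKN1C, the imprinted gene PHLDA2 had 17.5, 18.4 and 20.9 RPKM with Nutlin-3 and 13.7, 11.7 and 15.5 RPKM with DMSO. Its call (log2 fold change 0.47, adjusted p = 0.0213 by limma) was lost without Nutlin-3 replicate 2 (0.0543), Nutlin-3 replicate 3 (0.0605) or DMSO replicate 1 (0.0578). The count of changed neighbours was 2, both lower, without either of those Nutlin-3 libraries. Over all 12212 tested genes, 5072 changed without Nutlin-3 replicate 2 and 5324 without Nutlin-3 replicate 3, against 6296 with all libraries. On recovered reads 11 were tested, of which 3 were higher and 7 lower, with a median log2 fold change of -0.31. Over all 20882 genes tested on reads, 25.6% were higher, 23.9% lower and the median was 0.0039.

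The kinases and cyclins that the inhibitors act on were mostly lower. Of 13, 8 were tested, 7 were lower and 1 was higher, with a median log2 fold change of -1.24 (over all tested genes 29.1% were higher, 22.5% lower and the median was 0.024). Cyclin A2 (CCNA2), the S-phase partner of CDK2, fell to 4.15 ± 0.291 RPKM with Nutlin-3, against 15.1 ± 0.903 RPKM with DMSO, and the mitotic cyclin B1 (CCNB1) fell to 3.60 ± 0.135 RPKM with Nutlin-3, against 11.1 ± 0.936 RPKM with DMSO (SD, n = 3 each). Cyclin D1 (CCND1), the partner of CDK4 and CDK6, was the exception and had 68.7, 73.1 and 75.2 RPKM with Nutlin-3 and 39.8, 36.3 and 36.4 RPKM with DMSO. Of the kinases, named here after their values were seen, CDK2 had a log2 fold change of -1.21 and CDK4 of -0.36, while CDK6 was below the filter. CDK6 is a long gene whose span lowers its RPKM, and it had 2083 to 2882 reads per library and a level per exon kb of 5.77 ± 0.157 with Nutlin-3 and 5.70 ± 0.138 with DMSO (SD, n = 3 each, limma voom adjusted p = 0.740).

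Downstream of these kinases stand the pocket proteins, which hold back E2F transcription factors until they are phosphorylated. Of 11 such genes, 7 were tested, 4 were lower, none was higher and 3 did not pass, with a median log2 fold change of -0.098 (over all tested genes 29.1% were higher, 22.5% lower and the median was 0.024). E2F1, an activator of S-phase genes, fell to 1.14 ± 0.0743 RPKM with Nutlin-3, against 3.89 ± 0.331 RPKM with DMSO (log2 fold change -1.42, adjusted p = 6.74e-05 by limma). The repressor E2F7 was also lower (log2 fold change -0.52), whereas E2F4, which acts with pocket proteins in resting cells, did not pass (6.85 ± 0.313 RPKM with Nutlin-3 and 7.11 ± 0.189 RPKM with DMSO). The filter on RPKM by gene span left out RBL1, E2F2 and E2F8, named here after their values were seen. On recovered reads, where 11 were tested and 7 were lower, these had log2 fold changes of -1.38, -2.08 and -2.35. The list median on reads was -0.43, and over all 20882 genes 25.6% were higher, 23.9% lower and the median was 0.0039.

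Ubiquitin ligase parts that act on p21, p27 or p57 proteins went both ways, 5 of 15 higher, 6 lower and 4 not past the threshold, with a median log2 fold change of -0.019 (over all tested genes 29.1% were higher, 22.5% lower and the median was 0.024). CDC20, which activates the anaphase-promoting complex, fell to 8.50 ± 0.637 RPKM with Nutlin-3, against 27.5 ± 1.33 RPKM with DMSO. CKS1B, which helps the ligase subunit SKP2 to bind p27, fell to 4.15 ± 0.296 RPKM with Nutlin-3, against 10.7 ± 0.703 RPKM with DMSO (SD, n = 3 each). The rises were small, among them 0.24 for CUL4B and 0.23 for RNF123 on log2(RPKM + 0.5), and 0.26 and 0.33 on recovered reads. Of the exon length of RNF123, 15.7% overlaps genes on the opposite strand. PSME3, a proteasome activator that takes part in p21 turnover, had 6.24 ± 0.396 RPKM with Nutlin-3 and 6.32 ± 0.196 RPKM with DMSO and did not pass.

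Among 14 tested transcription factors known to act on CIP/KIP genes, 4 were higher, 5 lower and 5 did not pass, with a median log2 fold change of -0.048 (over all tested genes 29.1% were higher, 22.5% lower and the median was 0.024). MXD4, a MAX partner that opposes MYC, had 6.64 ± 0.220 RPKM with Nutlin-3 and 3.55 ± 0.312 RPKM with DMSO (SD, n = 3 each, log2 fold change 0.82, adjusted p = 3.08e-04 by limma). KLF6 and the TGF-beta effector SMAD3 were lower, with log2 fold changes of -0.48 and -0.40. FOXO4 was called at 0.20 on the log2 scale (adjusted p = 0.0225 by limma), and this was lost without Nutlin-3 replicate 1 (0.0678), Nutlin-3 replicate 3 (0.0697) or DMSO replicate 3 (0.0602). Without Nutlin-3 replicate 1 the list held 5 changed genes rather than 9. Over all 12212 tested genes, 5526 changed without that library, against 6296 with all libraries.

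Polycomb proteins, which are known to silence the INK4 locus, and other regulators of it were split as well. Of 15 tested, 5 were higher, 7 were lower and 3 did not pass, with a median log2 fold change of -0.053 (over all tested genes 29.1% were higher, 22.5% lower and the median was 0.024). EZH2, the methyltransferase of Polycomb repressive complex 2, fell to 0.303 ± 0.00446 RPKM with Nutlin-3, against 0.945 ± 0.0648 RPKM with DMSO (SD, n = 3 each), and CBX2, a subunit of the other Polycomb complex, fell to 0.321 ± 0.0335 RPKM with Nutlin-3, against 0.835 ± 0.0367 RPKM with DMSO. The demethylase KDM6B, which removes the mark that EZH2 writes, had 1.41, 1.42 and 1.43 RPKM with Nutlin-3 and 0.866, 1.02 and 1.16 RPKM with DMSO. RING1 was also higher (log2 fold change 0.29). ID1, which restrains activators of CDKN2A, had 20.1 ± 1.15 RPKM with Nutlin-3 and 20.2 ± 1.22 RPKM with DMSO and did not pass. The part of these regulators in the changes of CDKN2A and CDKN2B was not tested.

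**Figure D5:**
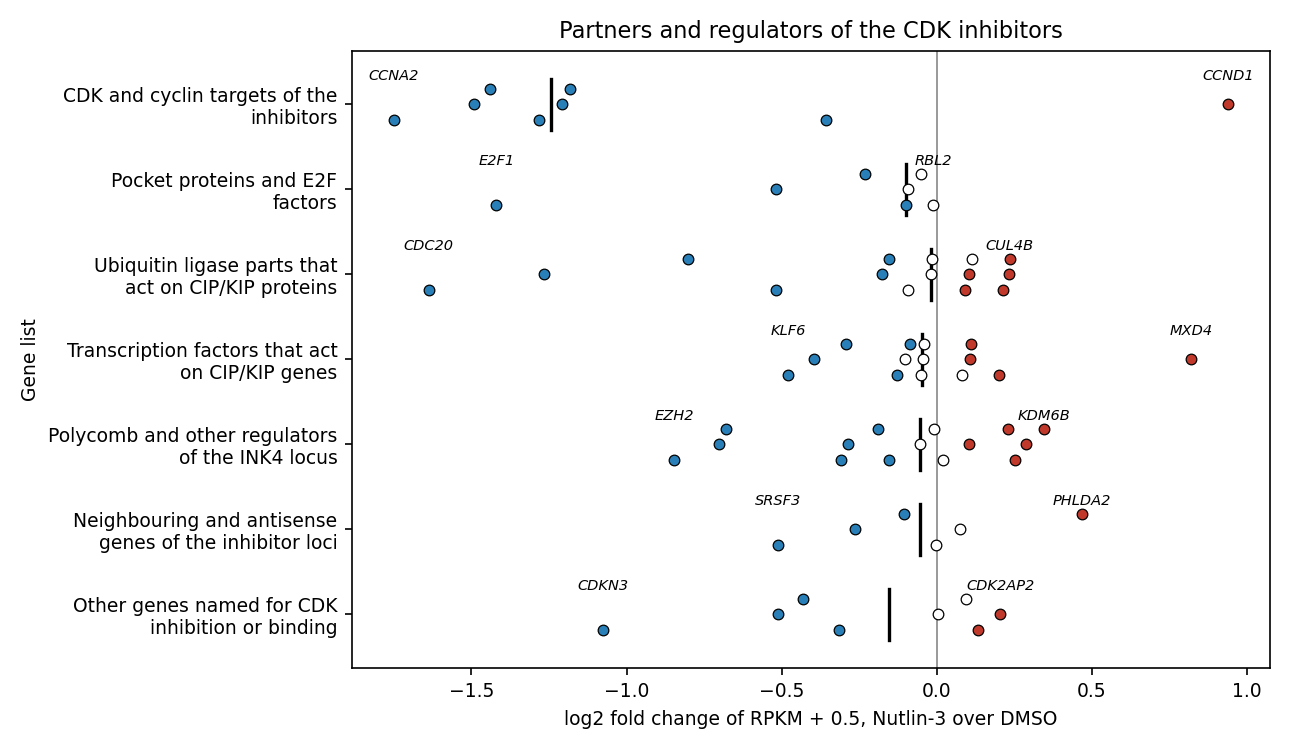
Log2 fold change of RPKM + 0.5, Nutlin-3 over DMSO, for the tested genes of 7 lists of partners and regulators, with the list median as a vertical bar and filled circles for genes past the threshold (limma, adjusted p under 0.05). The CDK and cyclin list has its median at -1.24, and the other 6 lists have medians between -0.16 and -0.019.

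Genes that share the name or the binding partners of the CDK inhibitors, without belonging to either family, went both ways, with 4 of 8 tested lower, 2 higher, 2 not past the threshold and a median log2 fold change of -0.16 (over all tested genes 29.1% were higher, 22.5% lower and the median was 0.024). CDKN3 encodes a phosphatase that acts on CDK2 rather than an inhibitor of the families above, and fell to 0.575 ± 0.00415 RPKM with Nutlin-3, against 1.77 ± 0.152 RPKM with DMSO (SD, n = 3 each). CABLES2 was lower too, at 52.7% of the DMSO level (log2 fold change -0.51, and -0.93 on recovered reads). CACUL1 had 1.18 ± 0.0328 RPKM with Nutlin-3 and 1.17 ± 0.0417 RPKM with DMSO and did not pass. The CDK2-binding genes CDK2AP2 and CDK2AP1 were called at 0.20 and 0.13 on the log2 scale (adjusted p = 0.0281 and 0.0163 by limma), and 16.5% of the exon length of CDK2AP1 overlaps another gene on the same strand. The call of CDK2AP2 was lost without Nutlin-3 replicate 2 (0.0870), Nutlin-3 replicate 3 (0.0800) or DMSO replicate 1 (0.0602), and that of CDK2AP1 without Nutlin-3 replicate 2 (0.0648), Nutlin-3 replicate 3 (0.0545), DMSO replicate 2 (0.0507) or DMSO replicate 3 (0.0520).

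The genes with the most similar profile were found by the root mean square difference of log2(RPKM + 0.5) from the DMSO mean over the 6 libraries, among 8197 genes with a symbol and a mean of at least 1 RPKM. CDKN1A, which had the largest rise on this scale, had no close match. The nearest was the antiproliferative gene BTG2 at a distance of 0.502, followed by AC025423.2 at 0.675, a pseudogene lying within exons of MDM2, and MIR3687-2 at 0.710. BTG2 had 5.21 RPKM with Nutlin-3 and 0.845 RPKM with DMSO, and the added 0.5 RPKM makes its change look smaller. The other tested inhibitor genes had matches at 0.0581 or less. CDKN2B was nearest to KRT18P10, LBH and the fibrillin gene FBN1, CDKN2A to FBXW5, AC093525.1 and GIPC1, and CDKN1B to FH, DDX20 and DRAP1. CDKN2C was nearest to HMGB1P5, the clamp-loader subunit RFC2 and AL035456.1, and CDKN2D to PEG10, HNRNPA2B1 and NRGN. KRT18P10, HMGB1P5 and AL035456.1 are processed pseudogenes, whose reads may belong to their parent genes.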

How the data were processed

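The 3 Nutlin-3 and 3 DMSO libraries were grouped by their titles. Per the labels' protocols, RNA was poly(A)-selected and made into stranded libraries with a TruSeq kit. The submitters' processing notes name CASAVA 1.8.2, TopHat2, edgeR and hg19. What counted the reads, on which annotation and whether by strand, was not given in the sources used here. RPKM per gene, made by the authors, fill the deposited table. Low values were whole numbers of reads, within 0.01 of a read, for 90.3 to 91.1% of values with the gene span in GENCODE 29 and for 23.8 to 24.6% with exon length, so the span lies behind the RPKM. Whole reads for limma voom (mean of at least 10 reads, the authors' library sizes) were recovered from the span for 27830 IDs. Where the span gave no whole reads or was missing, they were inferred from whole-number ratios between libraries. This was so for 5891 IDs with a span, among them CDKN1A, CDKN1C and CDKN2A, and for 2614 IDs without one.

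The test used limma 3.58.1 (R 4.3.3; lmFit, eBayes with trend) on log2(RPKM + 0.5) for genes whose mean reached 0.5 RPKM, with Benjamini-Hochberg adjustment over 12212 genes at 0.05, a scale that understates changes of low genes. Folds and percentages of the DMSO level are ratios of mean RPKM. The script was tested on simulated data. Single quantities had a 2-sided exact permutation test (scipy 1.17.1). The labels do not say whether triplicates were separate cultures, and the p-values therefore cover only how these 6 libraries vary, possibly a technical spread. No pair of libraries agreed within sampling noise, with a chi-square per gene of 1.88 to 5.11 within groups and 53.2 to 80.2 across groups.

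The genes and lists were chosen with earlier results of these data known. Of 100 list genes, 98 matched an ID and 73 were tested. By rule, the text names up to 2 rises, 2 falls and the highest gene that did not pass in each list, MDM2, and the 3 nearest profiles of each inhibitor gene tested. A gene taken by this rule is not reported here. Symbols came from GENCODE 29 and a gene name table for 52338 of 57773 IDs. Promoters came from RefSeq (GRCh38.p14), which held 1 or more windows for 6 of the 7 genes. Gene coordinates of hg19 are not given. Alternatives were other pseudocounts (0.1 and 1), other filters (none and 1 RPKM), median-of-ratios and quantile scaling, reads, a replicate block and leaving out each library.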

Additional observations from a re-analysis of the deposited data

How the results depend on the processing

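CDKN1A, CDKN2A, CDKN2B, CDKN2C and CDKN2D kept their direction and call under every alternative that was run. The count of all changed genes was 10322 on recovered reads (5337 higher, 4985 lower, of 20882), and 5072 to 5562 with a library left out. CDKN1B had a log2 fold change of -0.22 and no call with no filter (adjusted p = 0.0729 by limma) or with the replicate block (0.0955), and -0.25 to -0.17 with a library left out. The sum of the INK4 genes differed by 0.475 with the gene span, by 10.9 in reads per M, and by -1.51 to 0.645 with a library left out.

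With no filter, 7 pocket and E2F genes and 7 neighbours changed, and on recovered reads 7 and 10, where 21.2% and 49.4% of all genes changed. With a minimum mean of 1 RPKM, fewer genes are tested (4886 of 8710 changed), and 2 pocket and E2F genes, 6 ubiquitin ligase parts, 7 Polycomb genes and 2 neighbours changed. These list counts do not separate a lost call from a gene below that minimum. With a library left out, 5 to 7 transcription factors and 2 to 4 neighbours changed. Genes near 0 changed sign with a library left out, with ranges of -0.13 to 0.051 for CDKN1C, -0.011 to 0.025 for CACUL1, -0.014 to 0.019 for DMRTA1, -0.058 to 0.038 for ID1 and -0.044 to 0.031 for PSME3, and CACUL1 was at -0.017 with median-of-ratios scaling. Other changes were lost calls of FOXO4, PHLDA2, CDK2AP1 and CDK2AP2, with the same direction. The cause of these shifts was not tested where the number of genes or libraries does not show it.

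Same-numbered libraries did not deviate together (correlations of -0.025, 0.0079 and 0.017), which does not show whether they were prepared together. With the replicate block 5135 genes changed. Depth limits CDKN1C, with 10 to 26 reads per library, and intervals on reads cover the spread between these libraries only.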
